A study of Mus musculus with 272 samples.

Results

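The Kruppel-like factor genes Klf17, Klf4, Klf5, Klf6, Klf9, Klf3 and Klf13 were followed from the oocyte to the blastocyst in the mouse. The 7 genes were chosen by name, with earlier results of these data known. All 7 were among the 15771 gene symbols kept from the deposited table. The study collected GV oocytes (immature, with an intact germinal vesicle), MII oocytes (mature, arrested in metaphase II), zygotes, 2-cell, 4-cell and 8-cell embryos, morulae and blastocysts, and no strain, genotype, age or treatment of the animals is given in the labels. For each of these 8 stages, 4 transcriptome libraries were made from pools of 20 oocytes or embryos. In parallel, 3 lysates of about 100 oocytes or embryos each were separated on a linear 10 to 40% sucrose gradient in the presence of cycloheximide, which holds ribosomes on their transcripts, and each gradient was cut into 10 fractions that were sequenced one by one.

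Kruppel-like factors are transcription factors that bind CACCC boxes and GC boxes through a run of zinc fingers at the carboxyl end of the protein, and they differ mainly in the region before the fingers, which recruits activating or repressing partners. Klf4 is one of the factors used to reprogram somatic cells to pluripotency, and Klf4, Klf5 and Klf2 share targets with the pluripotency factors in embryonic stem cells. Klf5 is needed for the mouse blastocyst to form a working trophectoderm, the outer layer that gives rise to the placenta. Klf3 represses through the CtBP corepressors, and Klf9 and Klf13 through Sin3a. Klf17 belongs to the same family and is known in the mouse from germ cells.

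The promoters of 3 members are printed, 1 for each of the main time courses described below. They were searched for the letters of the boxes that the family binds, which not every promoter held. Each run holds the 250 bases before the gene's start, in the direction of transcription, taken from RefSeq on build GRCm38.p6. Capitals mark CACCC and GGGCGG read on either strand, and matches may overlap.
Klf17, 4:117765667-117765916, minus strand: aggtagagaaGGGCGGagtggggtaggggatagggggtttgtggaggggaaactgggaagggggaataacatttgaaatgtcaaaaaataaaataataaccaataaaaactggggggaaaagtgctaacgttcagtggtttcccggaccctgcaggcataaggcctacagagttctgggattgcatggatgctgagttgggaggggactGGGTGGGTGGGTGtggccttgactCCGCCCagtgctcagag
Klf4, 4:55532476-55532725, minus strand: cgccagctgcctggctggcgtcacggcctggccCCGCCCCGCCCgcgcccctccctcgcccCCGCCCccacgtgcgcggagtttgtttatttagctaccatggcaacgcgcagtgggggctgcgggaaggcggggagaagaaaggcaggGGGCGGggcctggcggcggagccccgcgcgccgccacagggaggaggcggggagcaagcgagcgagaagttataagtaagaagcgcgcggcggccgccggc
Klf6, 13:5861239-5861488, plus strand: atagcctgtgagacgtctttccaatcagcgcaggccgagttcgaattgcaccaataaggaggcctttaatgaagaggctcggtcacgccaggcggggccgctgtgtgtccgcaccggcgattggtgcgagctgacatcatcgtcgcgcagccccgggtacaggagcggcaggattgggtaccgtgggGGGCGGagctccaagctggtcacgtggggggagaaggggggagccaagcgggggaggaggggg
The Klf17 promoter held 4 CpG dinucleotides at a GC content of 52.0%, close to the median of 6 CpG and 52.4% GC over 32536 promoters of the same length. The Klf4 promoter held 32 CpG at 74.0% GC and the Klf6 promoter 21 CpG at 64.8% GC, both above the upper quartile of 61.2% GC. Klf9, Klf3 and Klf13 held 18, 23 and 24 CpG. CACCC occurred 3 times before Klf17, 5 times before Klf3, once each before Klf9 and Klf13, and not before Klf4 or Klf6; 52.1% of all promoters held it. GGGCGG occurred 2 times before Klf17, 4 times before Klf4, once before Klf6, 6 times before Klf3 and 3 times before Klf13, and 33.0% of all promoters held it. Promoters were matched for 6 of the 7 members, and none was found for Klf5. These matches describe the letters of the window and are no binding sites.

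Depth was 11.8 to 25.2 M reads in the 32 transcriptomes and 0.0105 to 44.0 M reads in the 240 fraction libraries. 14 of the latter, all from fraction 1, the top of the gradient, held under 1 M reads. Values are CPM, the reads of a gene scaled to a fixed total of reads per library, so a level is a share of that library's reads and not an amount per embryo. Because the samples are bulk pools, fewer cells that carry a transcript and less of it per cell cannot be told apart. Summed oocyte markers lay between 16959 and 22635 CPM in the GV and MII transcriptomes and at most 12.7 CPM in blastocysts, and the 2-cell and blastocyst markers peaked in the stages they name. Of 12 cumulus and granulosa cell markers 5 were in the table, with a sum of 41.9 to 75.6 CPM in GV oocytes, MII oocytes and zygotes and at most 21.7 CPM from the 2-cell stage on. Their part in the members' values was not tested. All 7 members passed each filter on low values.

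Among these 7 genes, the leading one changed during development. The 14 other Kruppel-like and Sp genes present were not part of this ranking. Klf17 made up nearly all of the 7 genes' signal in oocytes and zygotes, Klf4, Klf5, Klf9 and Klf3 appeared between the zygote and the 2-cell embryo, Klf6 came up in the morula and blastocyst, and Klf13 was present throughout and highest in blastocysts. Members were called changed between neighbouring stages when the limma adjusted p (Benjamini-Hochberg over all 14642 genes tested) was under 0.05 and the difference in mean log2(CPM + 1) was at least 1. Of 49 such tests 16 were called. The background was high: 34.5% of all genes were called on the way into MII, 10.3% into the zygote, 33.9% into the 2-cell, 64.8% into the 4-cell and 2.6% into the 8-cell embryo, 11.9% into the morula and 26.8% into the blastocyst. Of the 7 members 1, 1, 4, 4, 1, 2 and 3 were called in these transitions, in the same order.

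**Figure D1:**
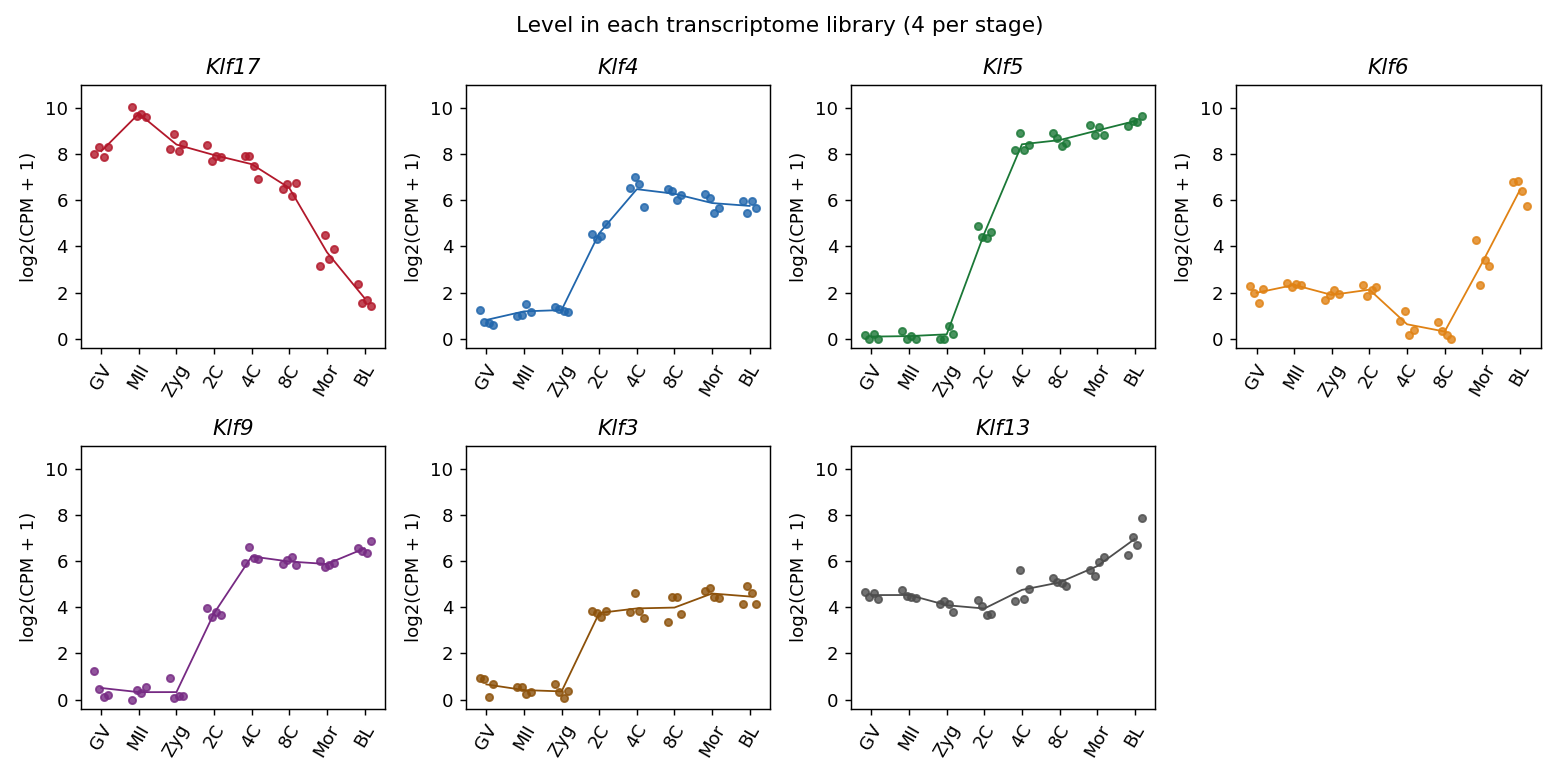
Level of each of the 7 genes, as log2(CPM + 1), in every transcriptome library (points, 4 per stage) with a line through the stage means. Stages run from GV oocyte (GV) to blastocyst (BL). Klf17 is highest in MII oocytes, at 781 to 1057 CPM, and falls to 1.71 to 4.20 CPM in blastocysts, while Klf5 runs the other way, from at most 0.467 CPM before the 2-cell stage to 594 to 805 CPM.

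Klf17 was highest in MII oocytes. The 4 GV libraries held it at 258, 316, 231 and 320 CPM, and the 4 MII libraries at 1057, 795, 855 and 781 CPM. Every MII library was above every GV library, and the mean rose 3.10-fold, from 281 ± 44.0 to 872 ± 127 CPM (SD, n = 4; change 1.63 ± 0.24 SE on the log2(CPM + 1) scale, limma adjusted p = 3.67e-07). In zygotes it was back at 294, 471, 280 and 348 CPM, again without overlap with MII, and fell by 1.34 (SE 0.24, limma adjusted p = 4.30e-05). The ranges of zygote, GV, 2-cell and 4-cell libraries overlapped from each to the next in the order of their means, and neither the zygote to 2-cell change of -0.46 (limma adjusted p = 0.102) nor the 2-cell to 4-cell change of -0.40 (limma adjusted p = 0.127) was called.

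After its fall from MII oocyte to zygote, the further called falls of Klf17 in the transcriptomes came after the 4-cell stage. The 2-cell libraries held 334, 206, 238 and 232 CPM, and the 4-cell libraries 240, 244, 179 and 121 CPM. The 8-cell libraries lay at 89.5, 104, 71.0 and 107 CPM, below each 4-cell library, a fall of 1.03 (SE 0.24, limma adjusted p = 0.00535). This fall sat at the limit of 1 and was under it, between 0.88 and 0.92, with quantile normalization, edgeR, DESeq2 or without any of 4-cell library A, 4-cell library B or 8-cell library C; with only the 2 stages in the fit the adjusted p was 0.0993. Morulae held 7.80, 21.9, 9.96 and 14 CPM, 6.93-fold below the 8-cell mean (change -2.78 ± 0.24 SE, limma adjusted p = 2.00e-10). Blastocysts held 4.20, 1.90, 2.25 and 1.71 CPM (change -1.99 ± 0.24 SE, limma adjusted p = 1.53e-08), again without overlap. From MII oocyte to blastocyst the mean differed 346-fold.

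Klf4 and Klf5 both appeared in 2 steps, into the 2-cell and into the 4-cell embryo. Klf4 lay at 0.523 to 1.88 CPM in the 12 libraries from GV oocyte to zygote. It rose to 22, 19.2, 21.2 and 30.1 CPM in 2-cell embryos (change 3.33 ± 0.22 SE, limma adjusted p = 3.35e-15) and to 91.6, 127, 103 and 50.9 CPM in 4-cell embryos (change 1.91 ± 0.22 SE, limma adjusted p = 1.16e-09). No library overlapped across either step. From there Klf4 showed no called change: the means were 93.2 ± 31.8, 77.6 ± 11, 59.6 ± 15.7 and 53.7 ± 9.15 CPM (SD, n = 4) from 4-cell to blastocyst, with overlapping ranges at each step.

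Klf5 had no more than 8 reads in any of the 12 libraries before the 2-cell stage, and 0 reads in 6 of them. The 2-cell libraries held 28.4, 20.5, 19.5 and 23.5 CPM (change 4.38 ± 0.18 SE, limma adjusted p = 1.66e-21). The 4-cell libraries held 286, 488, 292 and 340 CPM, 15.3-fold above the 2-cell mean (change 3.86 ± 0.18 SE, limma adjusted p = 1.08e-20). The means then ran 394 ± 70.4, 525 ± 81.6 and 694 ± 86.8 CPM (SD, n = 4) in 8-cell embryos, morulae and blastocysts, each step overlapping with the next and none called (limma adjusted p = 0.577, 0.0688 and 0.0517 in turn). Taking 3 reads per library as the floor for the GV oocytes, which held 2, 0, 2 and 0 reads, Klf5 was at least 3202-fold higher in blastocysts.

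Klf9 and Klf3, a Sin3a-binding and a CtBP-binding member, appeared in the same interval. Klf9 lay at 0.0474, 0.111, 0.117 and 0.887 CPM in zygotes and at 14.4, 10.8, 12.8 and 11.7 CPM in 2-cell embryos (change 3.42 ± 0.22 SE, limma adjusted p = 7.90e-16). It rose again to 59.6, 98.0, 70.1 and 67.7 CPM in 4-cell embryos (change 2.46 ± 0.22 SE, limma adjusted p = 1.32e-12) and was not called thereafter, although the step from 57.7 ± 4.05 CPM in morulae to 93.7 ± 16.5 CPM in blastocysts (SD, n = 4) had no overlap and a limma adjusted p of 0.00938 at a change of 0.68. Klf3 rose only once by this rule, from 0.592, 0.237, 0.0584 and 0.278 CPM in zygotes to 13.2, 12.3, 11 and 13.5 CPM in 2-cell embryos (change 3.40 ± 0.25 SE, limma adjusted p = 4.22e-14). The 2-cell to 4-cell difference of Klf3 was 0.20 ± 0.25 SE (limma adjusted p = 0.468), and its later means lay between 15.1 and 23.4 CPM. Over the 7 members the median zygote to 2-cell change was 3.33, against 0.37 over all genes tested. This median describes only the members that rose, since Klf17, Klf6 and Klf13 were not called (changes -0.46, 0.23 and -0.14). The members were chosen with earlier results of these data known, so the contrast with all genes is no test of the family.

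Klf6, a zinc finger factor of many tissues, followed a different course. It was low but counted in GV, MII, zygote and 2-cell libraries (1.97 to 4.38 CPM, 26 to 100 reads). Its MII libraries, at 3.68 to 4.38 CPM, lay above the zygote libraries, at 2.17 to 3.27 CPM, but the change of -0.43 ± 0.29 SE was not called (limma adjusted p = 0.299). It fell by 1.5 (SE 0.29, limma adjusted p = 1.33e-05) to 0.722, 1.30, 0.107 and 0.304 CPM in 4-cell embryos, all below the lowest 2-cell library at 2.61 CPM. The 8-cell libraries held 12, 4, 3 and 0 reads (0.664, 0.271, 0.129 and 0 CPM). Morulae held 18.6, 4.04, 9.81 and 7.84 CPM (change 2.99 ± 0.29 SE, limma adjusted p = 1.34e-09), and blastocysts 110, 114, 82.5 and 53.3 CPM (change 3.15 ± 0.29 SE, limma adjusted p = 2.95e-11). Neither late step overlapped, and the blastocyst mean was 8.93-fold above that of the morula.

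Klf13 was the one member at 11 CPM or more in all 32 transcriptomes. Its means were 22.1 ± 2.31, 22.2 ± 2.69, 16.1 ± 2.30 and 14.7 ± 3.38 CPM from GV oocyte to 2-cell embryo, then 28.0 ± 13.6, 32.9 ± 3.48 and 55.3 ± 14.6 CPM up to the morula (SD, n = 4). Blastocysts held 76.0, 129, 103 and 230 CPM, all above the highest morula library at 72.0 CPM. Only this last step was called (change 1.18 ± 0.25 SE, limma adjusted p = 0.000179). Without blastocyst library D, the highest, the change was 0.88 and no longer called, and with edgeR it was 0.999, just under the limit.

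The 7 genes were compared per length of transcript, with CPM divided by the length of the annotated exons. Among them, the lead passed from Klf17 to Klf5 between the 4-cell and the 8-cell embryo. Klf2 and the other genes of the family were not included. Klf17 held 96.2 ± 0.913% of the 7 genes' summed CPM per kb in GV oocytes, 98.7 ± 0.0750% in MII oocytes and 97.4 ± 0.626% in zygotes (SD, n = 4). It still held 83.7 ± 2.17% in 2-cell embryos. In 4-cell embryos Klf17, at 39.9 ± 6.88%, and Klf5, at 33.7 ± 6.75%, did not differ beyond their spread. Klf5 led from the 8-cell stage, with 46.7 ± 3.55%, to the morula, with 65.4 ± 4.16%, and the blastocyst, with 61.0 ± 2.18%. In blastocysts Klf6, Klf9, Klf13 and Klf4 followed with 9.99, 9.54, 8.96 and 8.19%, within the spread of each other, and Klf17 was last with 0.496%. The sum itself was 368 ± 53.5 CPM per kb in MII oocytes and 122 ± 18.1 to 218 ± 21.8 CPM per kb at the other stages.

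**Figure D2:**
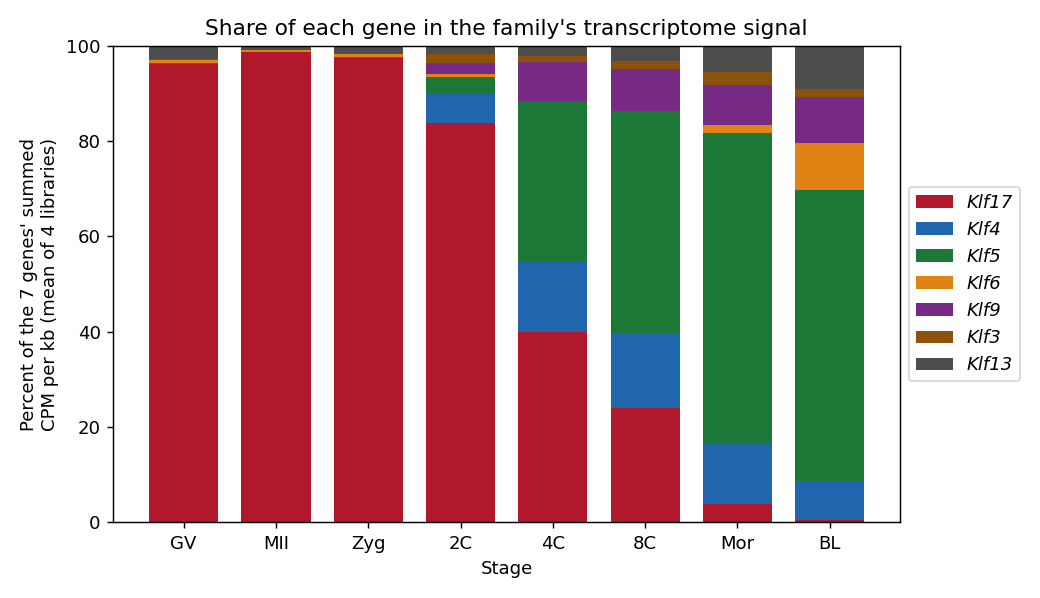
Each bar splits the 7 genes' summed CPM per kb of exon into the share of each gene, as the mean over the 4 transcriptome libraries of a stage. Klf17 fills 96.2 to 98.7% of the bar up to the zygote and 83.7% in 2-cell embryos, and Klf5 is the largest share from the 8-cell stage on.

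The balance of Klf17 with Klf4 and with Klf5 was tested within libraries as log2 of (CPM + 1) of Klf17 over that of the other gene. Klf17 over Klf4 averaged 8.57 ± 0.35 in MII oocytes, 7.17 ± 0.35 in zygotes, 3.39 ± 0.39 in 2-cell, 1.08 ± 0.27 in 4-cell and 0.25 ± 0.22 in 8-cell embryos, -2.13 ± 0.70 in morulae and -3.99 ± 0.32 in blastocysts (SD, n = 4). Klf17 over Klf5 was 9.64 ± 0.05 in MII oocytes, turned negative in 4-cell embryos at -0.86 ± 0.52 and ended at -7.67 ± 0.59. Before the 2-cell stage Klf5 was at most 0.467 CPM, so its ratio there followed the level of Klf17 almost alone. Klf4 was at most 1.88 CPM there, so its ratio followed Klf17 in the main. The GV to MII and MII to zygote comparisons therefore add little to the test of Klf17 itself. After the 4-cell stage neither Klf4 nor Klf5 had a called change, so those steps largely repeat that test too. Each ratio change is the difference of the changes of its genes, which were tested above. The 14 comparisons are thus no independent support. Both ratios were higher in MII than in GV oocytes, by 1.26 and 1.61, and lower at each of the 6 later steps. All 14 comparisons separated the 4 libraries of one stage from the 4 of the next, and each gave p = 0.0286 in a two-sided exact permutation test (0.0286 after Benjamini-Hochberg adjustment over the 14), the smallest p that 4 against 4 allows.

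Across the 8 stages Klf4, Klf5, Klf9 and Klf3 had like courses. The stage means of Klf4, Klf5, Klf9 and Klf3, on the log2 scale, had pairwise Pearson r of 0.967 to 0.996 over 8 stages. Klf17 had r of -0.629 to -0.930 with the other 6 members. These values are descriptions, between genes measured in the same libraries. The courses differed after the 2-cell stage. Into the 4-cell embryo the mean rose 15.3-fold for Klf5 and 1.21-fold for Klf3. From 4-cell embryo to blastocyst Klf4 went from 93.2 to 53.7 CPM and Klf5 from 352 to 694 CPM. The 3 genes most like Klf17 over the 32 transcriptome libraries were Fbxo34 (r = 0.965), D7Ertd443e (r = 0.961) and Ccnb1 (r = 0.958), the last encoding cyclin B1. Those most like Klf4 were H2az1 (r = 0.993), Stac2 (r = 0.991) and Wdr77 (r = 0.99), and those most like Klf5 were Cct6a, Elovl6 and Mkrn1 (r = 0.995, 0.994 and 0.994).

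Other genes of the family also rose at the zygote to 2-cell step. Of 20 other Kruppel-like and Sp genes listed, 14 were tested, and 9 of them rose and 0 fell between zygote and 2-cell embryo, where 33.9% of all genes were called in either direction, with a median change of 1.44 against 0.37 over all genes. This list and the lists below were also chosen with earlier results of these data known. Klf2, which overlaps in function with Klf4 and Klf5 in stem cells, went from a mean of 0.800 CPM in zygotes to 4.65 in 2-cell and 142 in 4-cell embryos (changes 1.66 ± 0.18 and 4.65 ± 0.18 SE, limma adjusted p = 7.89e-10 and 1.23e-22) and fell from 145 CPM in morulae to 40.3 CPM in blastocysts (change -1.83 ± 0.18 SE, limma adjusted p = 2.13e-10). Klf7 fell at a step where Klf17 was not called: its mean was 31.2 CPM in 2-cell and 2.73 CPM in 4-cell embryos (change -3.22 ± 0.27 SE, limma adjusted p = 3.10e-13). From GV to MII oocyte and from MII oocyte to zygote, where Klf17 was called, Klf7 was not.

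Of 10 partner cofactors of the family, 5 rose and 1 fell from zygote to 2-cell, and 4 rose and 4 fell from 2-cell to 4-cell, steps at which 33.9% and 64.8% of all genes were called. Hdac1, a histone deacetylase of the Sin3 complex, rose from 6.53 to 120 CPM at the first of these steps (change 3.99 ± 0.18 SE, limma adjusted p = 4.82e-20). Ctbp2, a CtBP corepressor of the kind that Klf3 binds, fell at both, from 477 to 129 and 13.2 CPM (changes -1.88 ± 0.19 and -3.21 ± 0.19 SE, limma adjusted p = 2.19e-10 and 3.76e-17). The other CtBP gene, Ctbp1, was not called at the first step and was called higher at the second. Of 14 pluripotency factors, 4 rose and 1 fell from zygote to 2-cell, and 7 rose and 4 fell from 2-cell to 4-cell, which at the first step is near the same 33.9% of all genes and at the second is set beside 64.8%. Tbx3 rose at both steps, as Klf4, Klf5 and Klf9 did (changes 2.36 ± 0.24 and 2.32 ± 0.24 SE, limma adjusted p = 1.29e-10 and 5.72e-11). Of 8 trophectoderm factors tested of 9 listed, 6 rose and 0 fell from morula to blastocyst, when Klf6 and Klf13 rose and 26.8% of all genes were called, with a median of 3.33 against 0.16 over all genes. Cdx2 went from 8.58 to 92.5 CPM (change 3.38 ± 0.31 SE, limma adjusted p = 3.62e-11).

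Along the gradients, Klf17 was found on both sides at each stage until the morula. Fractions 1 to 5 are called light here and 6 to 10 heavy; transcripts that carry more ribosomes sediment further, toward fraction 10. Each fraction is scaled to its own reads, so a profile compares concentrations between fractions and is no share of the molecules. In MII oocytes Klf17 peaked in fraction 4, at 13139, 10005 and 4693 CPM in gradients A, B and C, against 85.8, 272 and 152 CPM in fraction 2. In GV oocytes fraction 4 held 938, 784 and 968 CPM, and the means of fractions 3 to 10 lay between 459 and 904 CPM. Zygotes held 1533 to 2815 CPM in the means of fractions 4 to 10. Klf17 was at 0 in 6 of the 30 blastocyst fraction libraries and in 0 of the 120 from GV oocyte to 2-cell embryo.

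**Figure D3:**
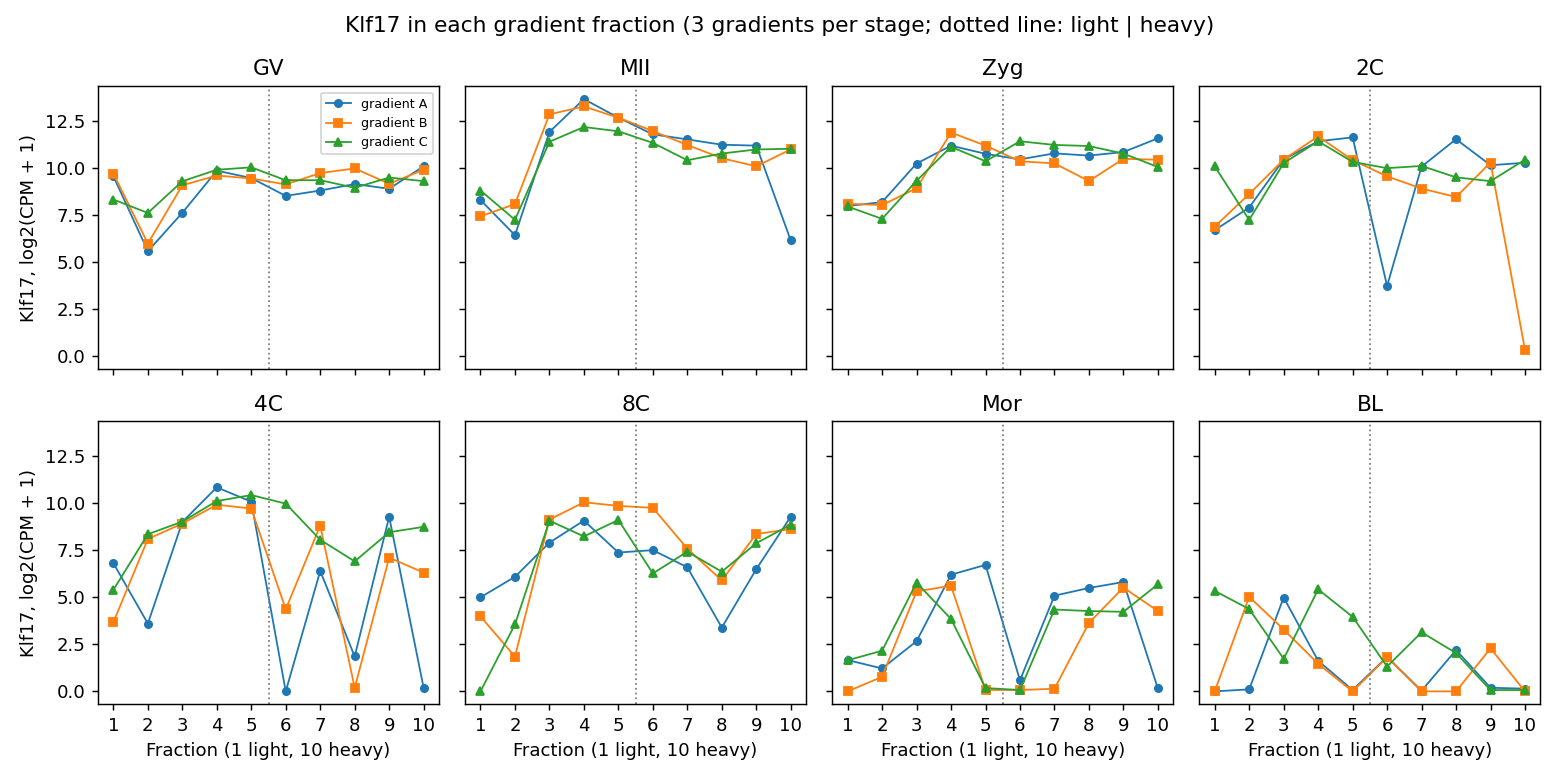
Klf17 as log2(CPM + 1) in fractions 1 to 10 of the 3 gradients of each stage, with the limit between light and heavy fractions dotted. MII oocytes show a crest in fraction 4, with gradient means of 9279 CPM there and 170 CPM in fraction 2; from the 2-cell stage on, single fractions of single gradients drop far below their neighbours.

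Single fractions were uneven from the 2-cell stage on. In 2-cell fraction 10, for example, Klf17 was at 1255, 0.267 and 1404 CPM in the 3 gradients. The gradient, not the fraction, was therefore the unit of each test, with the mean CPM over its heavy fractions. Of 49 tests of the heavy fractions between neighbouring stages 6 were called, 4 of them for Klf17. Over all 14524 genes tested the share called was 4.06% on the way into MII, 1.49% into the zygote, 20.8% into the 2-cell, 37.8% into the 4-cell and 6.54% into the 8-cell embryo, 7.98% into the morula and 0.0757% into the blastocyst. Of the 7 members 1, 0, 1, 1, 0, 2 and 1 were called in that order. In the 2 transitions where limma called 0 of the 7, 2 of the 14 member tests had an unadjusted p under 0.05 and edgeR called 0.

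In the heavy fractions Klf17 was at 595, 798 and 636 CPM in GV oocytes and at 2285, 2219 and 1981 CPM in MII oocytes, with no overlap. The rise of 1.68 (SE 0.43) had a limma adjusted p of 0.0259, and of 0.0527 to 0.108 when any 1 of the 6 gradients was left out; with fractions 7 to 10 alone it was 0.0561. In zygotes the heavy level was 1957, 1209 and 2071 CPM, a difference from MII of -0.35 ± 0.43 SE (limma adjusted p = 1). From 2-cell embryos, at 1299, 573 and 983 CPM, it fell by 2.14 (SE 0.43, limma adjusted p = 0.000413) to 142, 137 and 437 CPM in 4-cell embryos, without overlap. This call needs the spread of all stages, since the adjusted p was 0.0995 with the 2 stages alone. The 4-cell and 8-cell values, the latter at 201, 369 and 206 CPM, overlapped (change 0.28 ± 0.43 SE, limma adjusted p = 0.838). Morulae held 26.7, 15.0 and 21.3 CPM (change -3.54 ± 0.43 SE, limma adjusted p = 1.06e-05). Blastocysts held 1.29, 1.28 and 2.51 CPM (change -3.03 ± 0.43 SE, limma adjusted p = 0.00231), a call that had an adjusted p of 0.0767 with the 2 stages alone.

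The other called heavy-fraction changes were those of Klf9 and Klf6. Klf9 went from 0, 0.708 and 1.74 CPM in zygotes to 28.1, 20.1 and 36.6 CPM in 2-cell embryos (change 4.09 ± 1.01 SE, limma adjusted p = 0.00625), again with no overlap. The 2-cell signal sat mainly in fraction 6, at 140, 47.9 and 137 CPM; with fractions 7 to 10 the adjusted p was 0.125, and with edgeR it was 0.0825. Klf6 went from 0.0344, 0.0259 and 0.0940 CPM in 8-cell embryos to 6.28, 33.8 and 39.1 CPM in morulae (change 4.36 ± 0.66 SE, limma adjusted p = 0.000179; 0.0633 with edgeR and 0.0503 with the 2 stages alone), and to 50.8, 33.5 and 73.4 CPM in blastocysts (change 1.24 ± 0.66 SE, limma adjusted p = 1). Klf5 reached 73.6, 146 and 55.1 CPM in the heavy fractions of 8-cell embryos from 1.86, 23.7 and 32.9 CPM in 4-cell embryos, without overlap and with a limma adjusted p of 0.0833. Klf4 was uneven: its 3 heavy values were 3.93, 0.956 and 35.1 CPM in 2-cell and 0.432, 54.8 and 9.09 CPM in 4-cell embryos, and none of its 7 steps was called, although with quantile normalization the step from zygote to 2-cell was (change 2.73, adjusted p = 0.0185).

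**Figure D4:**
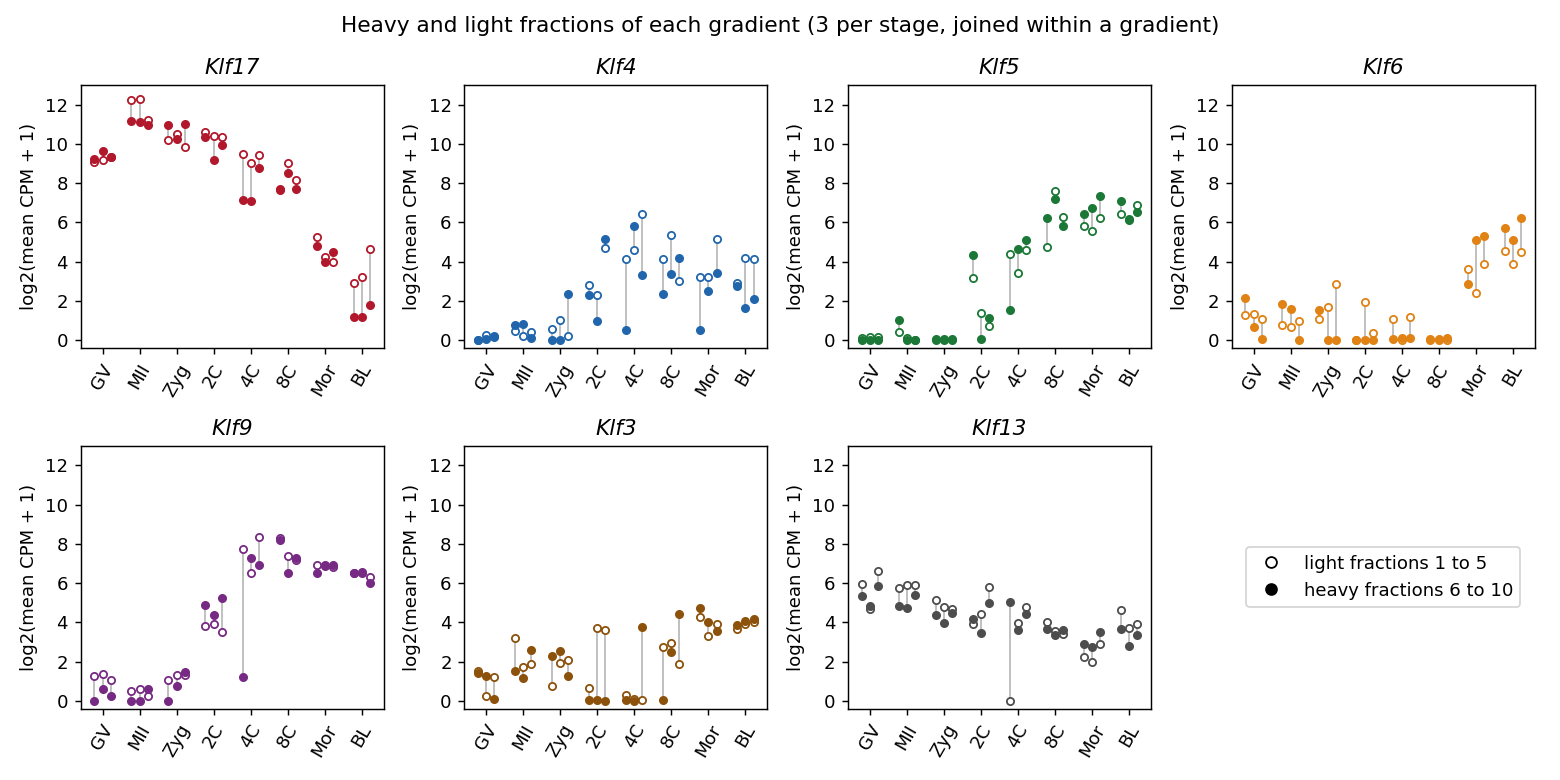
Mean CPM of the light fractions 1 to 5 (open points) and of the heavy fractions 6 to 10 (filled points) of each gradient, as log2(mean CPM + 1), joined within a gradient. Klf17 lies lower in the heavy than in the light fractions of all 3 gradients in MII oocytes, 2-cell, 4-cell and 8-cell embryos and blastocysts; Klf6 lies higher in the heavy fractions of all 3 blastocyst gradients.

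Heavy and light fractions were then compared within each stage. Of 56 member tests 4 were called, all lower in the heavy fractions. Over all 15172 genes tested the share called was 0.0725% in GV oocytes, 3.23% in MII oocytes, 3.01% in zygotes, 18.2% in 2-cell, 16.3% in 4-cell and 9.05% in 8-cell embryos, 5.81% in morulae and 2.74% in blastocysts, and 0, 0, 0, 1, 2, 0, 0 and 1 members were called in that order. In the 5 stages where limma called 0 of the 7, 1 of 35 member tests had an unadjusted p under 0.05 and edgeR called 0. Klf17 in 4-cell embryos had light values of 716, 519 and 680 CPM above heavy values of 142, 137 and 437 CPM (change -1.62 ± 0.42 SE, limma adjusted p = 0.00617; 0.0857 without gradient A). In blastocysts its light values were 6.61, 8.44 and 23.7 CPM, all above the heavy values of 1.29, 1.28 and 2.51 CPM (change -2.20 ± 0.42 SE, limma adjusted p = 0.000938). Its CPM-weighted mean fraction was 3.32 ± 0.381 in blastocysts and 4.98 to 6.34 in the means of the other stages (SD, n = 3). All 4 calls used the spread over the 8 stages: with a stage fitted alone, none of them held (adjusted p = 0.0572 for Klf17 in blastocysts and 0.423 in 4-cell embryos). Fitted alone, the 2-cell and the 4-cell stage gave 0 limma calls over all genes (2478 and 1428 genes at an unadjusted p under 0.05), against 2758 and 2468 with the shared spread, and blastocysts gave 1654 against 416.

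The calls for Klf3 and Klf9 rested on few libraries. Klf3 in 2-cell embryos had light values of 0.600, 12.2 and 11.2 CPM and heavy values of 0.0188, 0.0431 and 0 CPM (change -2.64 ± 0.83 SE, limma adjusted p = 0.0212), with 55.6 and 37.3 CPM in fraction 4 of gradients B and C and 0 in that of gradient A. Without gradient B or C the adjusted p was 0.154 or 0.151, and with the stage fitted alone it was 0.262. Klf9 in 4-cell embryos had light values of 211, 89.4 and 320 CPM and heavy values of 1.37, 154 and 119 CPM (change -2.37 ± 0.79 SE, limma adjusted p = 0.0316). Without gradient A the change was -0.32 and the adjusted p was 0.879, with quantile normalization 0.0709 and with edgeR 0.586.

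The heavy minus light difference itself moved between neighbouring stages in 2 of 49 member tests, both from 2-cell to 4-cell, where 14.2% of all genes were called. Klf3 shifted by 3.77 (SE 1.20, limma adjusted p = 0.0408) and Klf9 by -3.46 (SE 1.08, limma adjusted p = 0.0371). The 4-cell heavy mean of Klf3 came almost wholly from 62.9 CPM in fraction 8 of gradient C; without 4-cell gradient C the shift was 2.48 with an adjusted p of 0.172, and without 2-cell gradient B or C the adjusted p was 0.113 in both cases, and with quantile normalization it was 0.0801. For Klf9 the shift was -1.41 with an adjusted p of 0.128 without 4-cell gradient A, -1.21 with fractions 7 to 10 against 1 to 4 (adjusted p = 0.537), and the adjusted p was 0.0670 and 0.0945 without 2-cell gradients A and C. With the 2 stages alone neither held (adjusted p = 0.424 and 0.551), and limma called 0 of all genes (1765 at an unadjusted p under 0.05), against 2154. For Klf17 the largest of the 7 shifts, none called, was -2.14 ± 0.53 SE from morula to blastocyst (unadjusted p = 0.000714, limma adjusted p = 0.401). At the other 6 transitions limma called 0 of the 7 members, 5 of 42 tests having an unadjusted p under 0.05; the shares of all genes called there were 0.0659, 0.0198, 5.5, 3.18, 0.521 and 0.00659%, in order of development.

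Fractions and transcriptomes of one stage did not give the same level for a member. Averaged over all 10 fractions, Klf17 lay above its transcriptome level at each of the 8 stages, by 1.65-fold in morulae to 4.65-fold in 2-cell embryos; in MII oocytes the means were 3103 and 872 CPM. Klf5 lay below it from the 2-cell stage on, most in 4-cell embryos, with 18.6 against 352 CPM (18.9-fold). In blastocysts the means of Klf5 were 94.8 CPM over the fractions and 694 CPM in the transcriptome. Klf4 was lower over the fractions at all 8 stages, and from the 2-cell stage on by 1.85-fold in 2-cell embryos to 6.32-fold in blastocysts. Klf13 changed sides: it was 2.31-fold higher over the fractions in GV oocytes (51.1 against 22.1 CPM) and 10.5-fold lower in blastocysts (12.8 against 134 CPM), so that the transcriptome mean rose toward the blastocyst while the mean over the fractions was lower in blastocysts than in GV oocytes. The 2 kinds of library differ in input and each is scaled to its own reads, and these differences were not tested.

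**Figure D5:**
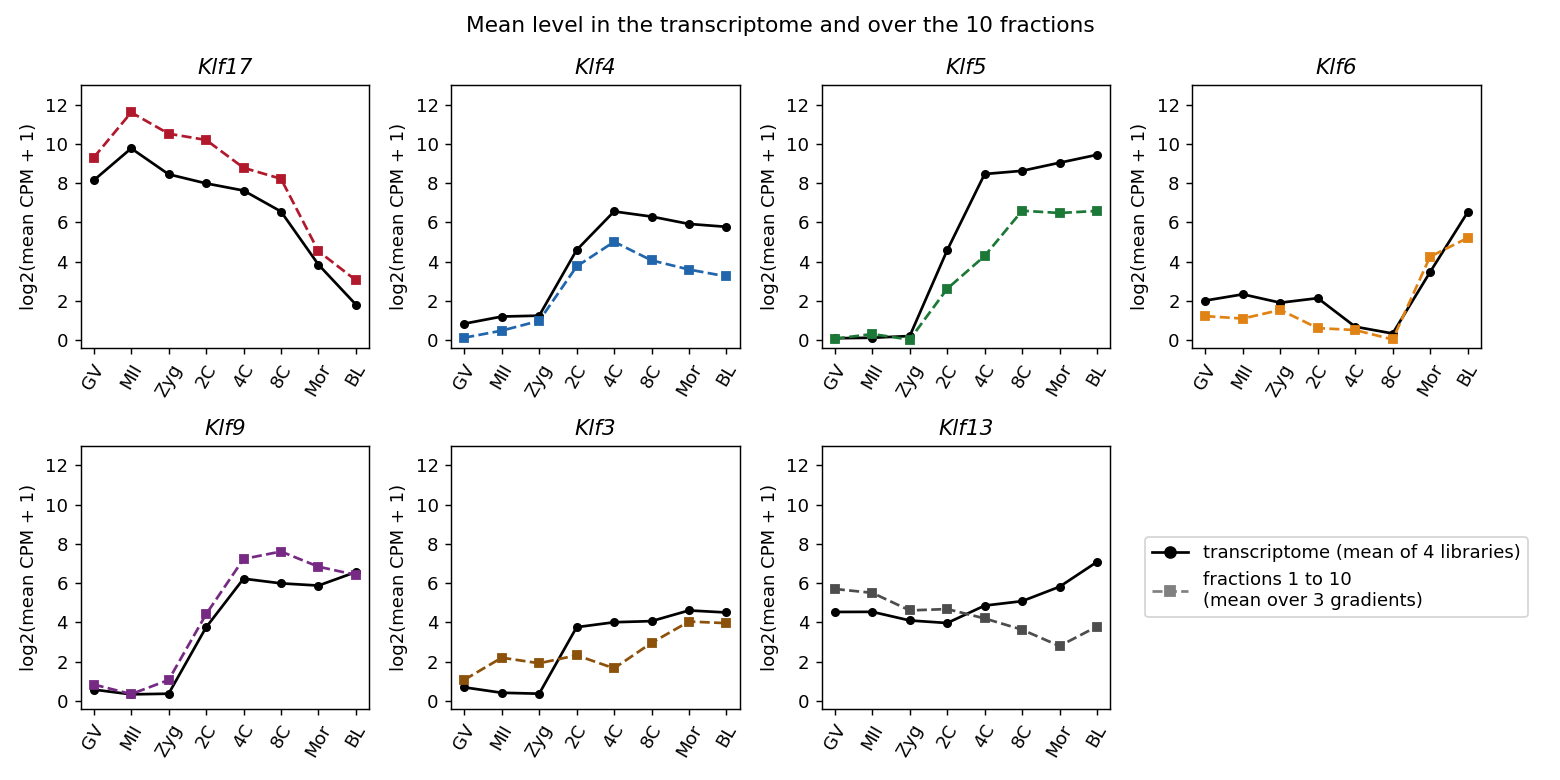
Mean level of each gene in the 4 transcriptome libraries (black, solid) and over the 10 fractions of the 3 gradients (coloured, dashed), as log2(mean CPM + 1), by stage. The dashed line of Klf17 lies above the solid one at each stage, that of Klf4 below it, and those of Klf13 cross between the 2-cell and 4-cell embryo.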

How the data were processed

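RNA of mouse oocytes and embryos was sequenced in 32 transcriptome and 240 gradient-fraction libraries made with a Smart-seq kit and Nextera tagmentation, per the labels' protocols. The authors deposited 1 table of CPM values for 15854 gene symbols. Trim Galore 0.6.7, FastQC, HISAT2 2.2.1, featureCounts 2.0.1 and edgeR are named, with build GRCm39, per the submitters' processing notes, which give no role or order. Per the labels, groups are stage and fraction; the 4 transcriptome columns of the 2-cell stage carry other letters than the labels and were matched to the stage only. In the table as deposited, 76 groups of symbols shared identical values, and 1 symbol of each was kept, leaving 15771; before that, 38 columns summed to more than the CPM scale allows and were treated as the authors' deposited signal of the same scale, after it none did. No column was left without a sample or stage.

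Each CPM was a whole multiple of the value of 1 read (100% of values, tolerance 0.05 reads), which gave the depths and the reads used by edgeR 4.0.16 and DESeq2 1.42.0 as alternatives, without 1 library of fraction 7 of the 2-cell stage, whose step lay near the rounding of the table. The main tests used limma 3.58.1 in R 4.3.3 on log2(CPM + 1), with all stages in 1 fit and genes at 1 CPM or more in at least 4 libraries (transcriptomes) or 3 gradient values (fractions). Changes are on that scale and understate those of low genes. Heavy and light values of one letter come from the same gradient and so are paired by design: their deviations from the stage means correlated at r = 0.00776 to 0.253 (median 0.0973, 11 of 24 over 0.1), against -0.164 to 0.0383 between different letters. Ratios were tested by exact permutation. The labels do not say that replicates are separate animals, so p-values measure only the spread between these samples. A check on simulated data was also run. Its outcome and the settings it covered are not given here, so it lends no support to the calls. Exon lengths came from GENCODE M21 (GRCm38) and promoters from RefSeq; no coordinate was moved between builds. Named genes were the 7 members, the 3 genes most like Klf17, Klf4 and Klf5, and up to 3 genes from each list; members and lists were chosen with earlier results of these data known. Alternatives were the pseudocount, no filter, quantile normalization, only the compared stages in the fit, the replicate block, other fraction limits, the count tests, omission of libraries under 1 M reads, and omission of each replicate.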

Additional observations from a re-analysis of the deposited data

Results flagged for a closer look

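Among the 56 groups of 4 transcriptome libraries, 1 per member and stage, 2 held a library that stood apart from the other 3 by Dixon's test, and chance alone flags about 1 group in 20. Klf4 in GV oocytes was 1.38 CPM in library A and 0.523 to 0.655 CPM in the other 3. Klf9 in zygotes was 0.887 CPM in library A and 0.0474 to 0.117 CPM in the other 3. Both lie at the low end of these genes' range.

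The heavy minus light difference of Klf3 and Klf9 differed between 2-cell and 4-cell embryos by the test of the shift itself. The shift was 3.772 for Klf3 (SE 1.20, limma adjusted p = 0.0408) and -3.464 for Klf9 (SE 1.08, limma adjusted p = 0.0371). Neither held without single gradients, as given in the results.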

How the results depend on the processing

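Of the 16 called member changes in the transcriptomes, 14 were kept under every alternative run, and the other 2 were Klf17 from 4-cell to 8-cell and Klf13 from morula to blastocyst; the counts were 15 or 16 in each alternative and with each library left out. In the heavy fractions 1 of the 6 calls was kept under every alternative, that of Klf17 from 8-cell to morula, with counts of 5 to 8 when 1 gradient was left out and 4 to 9 otherwise. None of the 4 heavy against light calls was kept throughout: their count was 0 with only the compared groups in the fit, and 2 to 6 when 1 gradient was left out. Of the 2 shifts, 1 was left with quantile normalization, 1 with fractions 7 to 10 against 1 to 4 and 0 with only the compared groups; the count was 0 to 4 when 1 gradient was left out. No called change reversed. All 14 ratio differences kept their sign, with 13 of 14 under an adjusted p of 0.05 in the exact permutation test after quantile normalization and 10 to 12 when 1 library was left out, since 3 against 4 libraries cannot go below p = 0.0571.

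Between stages the letters did not pair the samples: same-letter transcriptomes had a median r of 0.00696 and same-letter heavy fractions 0.0105. With the replicate block, 1 of the 2 shifts was called (Klf3 had an adjusted p of 0.0526), against 6 of 6 heavy-fraction calls, 4 of 4 heavy against light calls and 8 of 8 transcriptome calls over the 5 transitions without 2-cell embryos, whose letters could not be matched. A replicate block for each gradient, which pairs its heavy and light values and was chosen after seeing the data, gave the same 4 heavy against light calls; over all genes it moved the count by over 1.5 times in GV oocytes (4 against 11) and in no other stage.

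Quantile normalization moved the median change of all genes by -0.43 to 0.26 in the transcriptomes and -0.32 to 0.47 in the heavy fractions. Klf6 from GV to MII was then called (change 1.08), and Klf4 from GV to MII was called by edgeR and DESeq2 (changes 1.03 and 1.17). In the heavy fractions quantile normalization also called Klf4 and Klf5 from zygote to 2-cell (changes 2.73 and 2.39) and Klf5 from 2-cell to 4-cell (2.33). There edgeR also called Klf5 from zygote to 2-cell and Klf3 from 2-cell to 4-cell, and the fit of the compared groups alone Klf3 from zygote to 2-cell (adjusted p = 0.0344). Leaving out 1 gradient of the 2-cell or 4-cell stage added heavy-fraction calls of Klf5 into the 2-cell, 4-cell and 8-cell stages and of Klf9 into the 4-cell and 8-cell stages. Leaving out the 14 shallow libraries left the counts at 6, 4 and 2. The heavy-fraction count of 6 could not change, since these libraries are all from fraction 1. Levels of Klf4, Klf5, Klf9 and Klf3 before the 2-cell stage rest on at most 40 reads per library. Over all genes, DESeq2 called over 1.5 times as many in 3 of 7 transcriptome transitions (885 against 380 from 4-cell to 8-cell), and with only the compared groups in the fit the count moved by over 1.5 times in 1 of 7 transcriptome (25 against 380, the same step), 5 of 7 heavy-fraction (1368 against 5495 from 2-cell to 4-cell), 7 of 8 heavy against light and at least 6 of 7 shift comparisons.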
